A study of Mus musculus with 14 samples.

Results

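Bone marrow-derived macrophages carrying a TFEB transgene were compared after exposure to tumour material and in plain medium. The comparison used the arrays titled TFEB-tg ECM and TFEB-tg Control, which are 6 of the 14 arrays of the series and 5 of its 11 replicates. Tumour replicate 3 had been hybridised on 2 arrays, which belong to 1 replicate, so 2 tumour replicates stood against 3 controls. Its 2 arrays were averaged for the levels below. In the fit they stayed 2 arrays of 1 block, with an estimated correlation within blocks of 0.0615. At that low correlation repeat arrays weighed nearly as much as separate replicates. A transgenic tumour replicate 1 was not analysed here. The macrophages came from 8-week-old female mice on the C57BL/6 background with the genotype LysM-Double-Cre x TFEB transgene+. The other 8 arrays came from mice of the same age, sex and background that carried LysM-Double-Cre without the transgene, which serve here as the wild-type comparison, so Cre was present in every group. After 1 week in M-CSF the cells were replated, and the controls then stayed in DMEM for 24 h. The tumour group received DMEM with medium conditioned by EO771 cells, a mouse mammary tumour line, together with a lysate of the tumour. The tumour material is a mixture, and which of its components acted on the cells was not measured. The series addresses how TFEB overexpression alters the macrophage response to tumour material, and the data below describe the response of the transgenic cells themselves. The design text states 3 biological replicates per group and the labels say no more. The p-values therefore measure the spread between these cultures and, in part, between repeat arrays of 1 culture.

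TFEB is a transcription factor of the MiT/TFE family that binds CLEAR elements and activates genes of lysosomes and autophagy when nutrients are scarce or lysosomes are damaged. LysM-Cre is active in myeloid cells, the lineage that includes macrophages and neutrophils. Macrophages that meet secreted and lysed tumour components can express inflammatory mediators, wound-repair enzymes such as arginase, and growth factors, and they are often described between an inflammatory and an alternatively activated, or M2-like, pole.

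Each level below is the log2 signal of a probe on 1 replicate after division by that array's 75th percentile of signal, so a level of 0 equals that percentile. Fold changes and adjusted p-values come from limma, fitted to 15834 genes on all arrays with slide as a term, and a gene was called at an adjusted p under 0.05. Fitted differences are corrected for slide and replicate levels are not. All 3 tumour arrays lay on slide 2 together with control replicate 3, while control replicates 1 and 2 lay on slide 1. Where a probe was not well above background on any array of 1 group, the change is a lower bound, set against the array's weakest detected signal or the probe's own, whichever was higher. Among the genes named with a fitted difference, Ccnd2, Egln3, Mmp13, Slc7a5 and Slfn4 were above background on 1 of 3 control arrays. Ak4, Camsap3, Ccl7, Ccl8, Cish, Gbp4, Ier3, Il1rn and Mmp10 were so on 2 of 3 control arrays, and Camsap3, Cdca3, Crispld2, Cyp27a1 and Ier2 on 2 of 3 tumour arrays.

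The Tfeb probe read 1.35, 1.36 and 0.86 in transgenic control replicates 1, 2 and 3, against 0.99, 0.82 and 0.89 in the wild-type controls. These ranges overlapped. The sources used here do not say whether the probe reads the transgene's transcript, so it does not check the genotype labels. Control replicate 1 stood apart from the other controls. Its values correlated with replicates 2 and 3 at Pearson r of 0.959 and 0.957 across genes, where replicates 2 and 3 correlated at 0.981. Tumour replicate 2 correlated with the 2 arrays of tumour replicate 3 at 0.992 and 0.979, and those 2 arrays with each other at 0.98. Control replicate 1 lay over 2-fold from the mean of the other controls for 2124 genes, against 1158 for replicate 2 and 1266 for replicate 3. Each result is therefore also given without it. Every gene that rises or falls in the text below was called in the same direction with and without control replicate 1, unless the sentence says otherwise.

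Macrophage markers were retained. Cd68, a lysosomal glycoprotein of macrophages, read 9.85, 10.13 and 9.82 in the controls and 10.06 and 10.09 after tumour material. Csf1r, the M-CSF receptor, read 8.59, 8.56 and 8.20 and 8.47 and 8.53. The summed level of 19 macrophage identity genes was 11.3 to 11.6 in the controls and 11.6 and 11.7 in the tumour replicates. Of the markers of other cells, the summed level of 7 myeloid progenitor genes was 6.83, 7.19 and 7.27 in control replicates 1, 2 and 3 and 6.65 and 6.61 after tumour material. The summed level of 12 neutrophil granule genes was highest in control replicate 1, at 9.58, against 7.70 and 7.91 in replicates 2 and 3 and 8.86 and 8.33 in the tumour replicates. The 4 skeletal muscle genes measured summed to -0.63, -0.03 and 1.08 in the controls and to -2.004 and -1.55 after tumour material. Of 11 listed markers of epithelial and mammary tumour cells 2 were tested, 1 of them Lcn2, a secreted protein that macrophages also make, and the others were too dim. The summed level of 8 osteoclast genes was 8.70, 7.98 and 7.93 in the controls and 9.13 and 9.29 after tumour material, with 1 member higher and 2 lower. Single genes of B cells, Cd79b, and of erythroid cells, Epor, were measured and fell (-2.20 and -2.31), and Epor, above background on 1 of 3 tumour arrays, lost its call without transgenic control replicate 3 (adjusted p 0.133) and without transgenic tumour replicate 3 (adjusted p 0.152). The part of these cells in the results was not tested, and in bulk cultures fewer cells of a type and less RNA per cell cannot be told apart.

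Tumour material changed 4016 of the 15834 genes in transgenic macrophages, which is 25.4% of those tested. Of these, 2407 were higher (15.2%) and 1609 were lower (10.2%), with a median size of 1.03 on the log2 scale. By at least 2-fold 1207 genes (7.62%) rose and 877 (5.54%) fell, and by at least 4-fold 492 rose and 309 fell. Under quantile scaling 3886 genes passed, of which 50.7% were higher, against 59.9% in the fit above. That scaling moved the median of all genes from 0.06 to -0.01. Without control replicate 1 the count was 5295 (33.4%), with 19.2% of genes higher and 14.2% lower. Of these calls 3965 were shared with the full fit in the same direction, while 51 calls of the full fit were lost and none was reversed. The tumour replicates lay entirely above the controls for 29.7% of genes and entirely below them for 21.0%. The count depended on the arrays used, so list counts below for fits that left out 1 replicate are to be read beside it. List counts with all arrays are to be read beside 15.2% higher and 10.2% lower. Those without control replicate 1 belong beside 19.2% and 14.2%. Slide 2 held 1 array of every group but the transgenic tumour group, so the fit on that slide alone carries little weight. Without control replicate 3 the count of calls was 2850, with 1696 genes higher and 1154 lower. It was 2304 without tumour replicate 3, 1765 on slide 2 alone and 187 when the 6 transgenic arrays were fitted without the wild-type arrays, with repeat arrays averaged because their correlation could not be estimated from 1 pair.

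**Figure D1:**
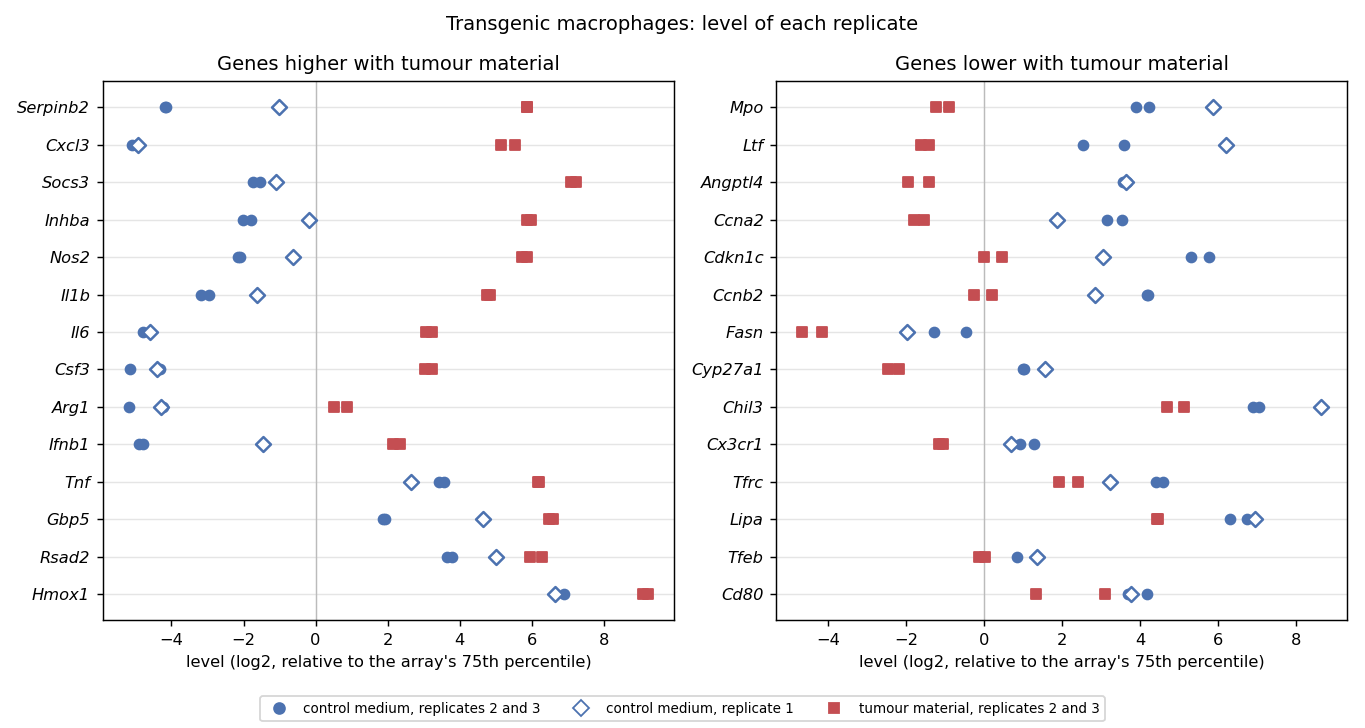
Levels (log2 signal relative to the array's 75th percentile) of 28 genes in each transgenic replicate. Open diamonds are control replicate 1, filled circles control replicates 2 and 3, and red squares tumour replicates 2 and 3. The tumour replicates lie close together and far above the controls for Serpinb2, Socs3 and Nos2, and far below them for Mpo, Ltf and Angptl4.

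The 12 largest rises included genes of several functions. Serpinb2, an intracellular and secreted inhibitor of urokinase-type plasminogen activator, was above background on 1 of the 3 control arrays and read -1.02, -4.16 and -4.17 in the controls against 5.87 and 5.88 after tumour material. Its fitted log2 difference was 9.27 ± 0.84 (SE; adjusted p 1.07e-05). Without control replicate 1 no control array was above background, and the rise was at least 661-fold. Slfn4, an interferon-responsive Schlafen gene of myeloid cells, rose by 7.97 (adjusted p 2.97e-05), with its highest control value in replicate 1. Inhba, which encodes the activin A subunit, read -0.18, -1.78 and -2.01 in the controls and 5.86 and 5.98 in the tumour replicates. Its difference of 7.51 ± 0.40 had an adjusted p of 2.22e-07. Tumour replicates lay close together and far above every control in all 3 genes. Flrt3, an adhesion protein, and U90926, a transcript of activated macrophages, were dim on the control arrays and at least 207-fold and 151-fold higher.

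**Figure D2:**
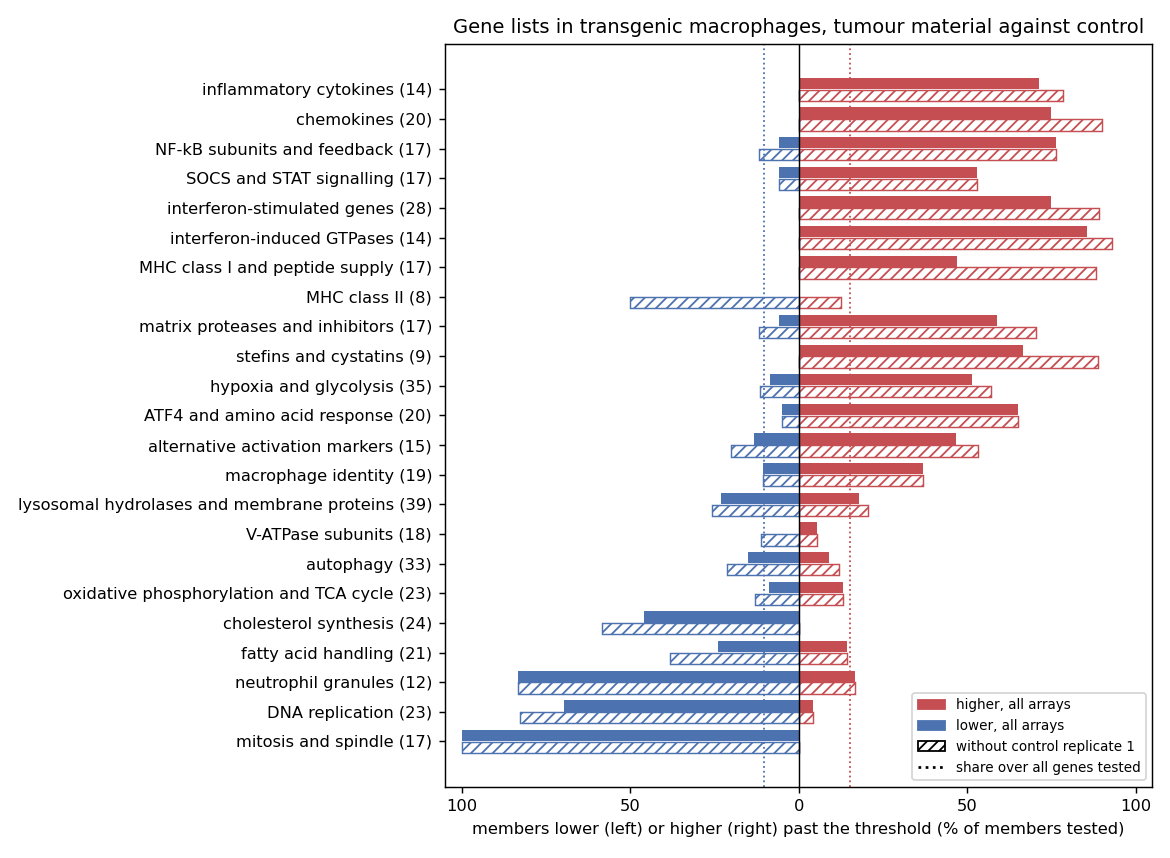
Percent of the measured members of each gene list that rose (right) or fell (left) in transgenic macrophages at an adjusted p under 0.05. Hatched bars are the fit without control replicate 1. Dotted lines are the shares over all genes in the fit with all arrays, 15.2% higher and 10.2% lower. For the hatched bars the shares over all genes were 19.2% and 14.2%, which are not drawn. Chemokines, inflammatory cytokines and interferon-induced GTPases lie far to the right of the dotted line, and mitosis genes, of which every measured member fell, far to the left.

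Most inflammatory cytokines rose. Of 14 measured members of the list, 10 rose (all genes: 15.2%), the median log2 difference was 2.37 against 0.06 over all genes, and the 10 stayed called in each fit that left out 1 replicate. Il6, a cytokine of the acute-phase response, was not well above background on any control array and read 3.22 and 3.07 after tumour material, at least 101-fold higher (adjusted p 8.08e-10). Il1b, the main secreted interleukin-1, read -1.63, -3.19 and -2.95 in the controls, above background on 1 of 3 arrays, and 4.75 and 4.83 after tumour material. Its difference was 7.44 ± 0.39 with an adjusted p of 1.97e-07, and it was at least 232-fold higher without control replicate 1. Il1a, which encodes interleukin-1 alpha, rose at least 23.5-fold, although its tumour replicates lay apart at 0.10 and 1.98. Il1rn, the receptor antagonist that blocks interleukin-1, rose by 5.61. Ifnb1, interferon beta, read -1.46, -4.91 and -4.80 in the controls and 2.16 and 2.33 after tumour material. The higher control value was that of replicate 1, the only control array above background. The difference was 5.99 with it, and the rise was at least 53.4-fold without it. Tnf was well above background in every control at 2.66, 3.55 and 3.44 and rose to 6.19 and 6.17, by 2.89 ± 0.22 (adjusted p 3.65e-06). Il10, the main anti-inflammatory cytokine of macrophages, did not pass: its levels of -0.76, -0.16 and -0.46 in the controls and 0.40 and -0.037 in the tumour replicates gave a difference of 0.46 (adjusted p 0.197).

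Of 20 chemokines measured, 15 rose, the median was 2.83, and 18 rose without control replicate 1. Cxcl3, a neutrophil attractant that signals through CXCR2, was dim on all control arrays and read 5.15 and 5.52 after tumour material, at least 462-fold higher (adjusted p 1.35e-06). Cxcl2, which signals through the same receptor, rose at least 49.2-fold. The monocyte attractants Ccl12 and Ccl8 rose by 7.61 and 7.14. Ccl7 and Ccl2, which recruit monocytes through CCR2, depended most on control replicate 1 in size. Ccl7 read -4.00, 3.54 and 3.14 in the controls, with replicate 1 far below the others, and 7.91 and 8.19 after tumour material. Its difference was 6.61 ± 1.64 and became 4.88 without control replicate 1, and it lost its call without tumour replicate 3 (adjusted p 0.0852). Ccl2 read 1.57, 6.16 and 6.01 and 8.31 and 8.35, a difference of 3.24 that became 2.19 without control replicate 1. Leaving out wild-type control replicate 3, wild-type tumour replicate 3, transgenic tumour replicate 2 or transgenic tumour replicate 3 ended the Ccl2 call, at adjusted p of 0.0734, 0.0967, 0.0646 and 0.141. Cxcl10, an interferon-induced attractant of T cells, rose by 3.15. Cxcl9, a related attractant induced mainly by interferon gamma, read 1.60, -1.59 and -0.96 in the controls and 0.049 and -0.41 after tumour material and did not pass (adjusted p 0.759). Its difference was 0.98 without control replicate 1, at an adjusted p of 0.0426.

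The promoter of Cxcl3 is shown because it was among the largest rises and its window holds a match to an NF-kB type motif. The window covers 250 bases before to 50 after the start, from RefSeq on GRCm38.p6, at chr5:90785851-90786150 on the + strand, with the match to the motif (GGGA, any base, TTTCC, on either strand) in capitals.
Cxcl3: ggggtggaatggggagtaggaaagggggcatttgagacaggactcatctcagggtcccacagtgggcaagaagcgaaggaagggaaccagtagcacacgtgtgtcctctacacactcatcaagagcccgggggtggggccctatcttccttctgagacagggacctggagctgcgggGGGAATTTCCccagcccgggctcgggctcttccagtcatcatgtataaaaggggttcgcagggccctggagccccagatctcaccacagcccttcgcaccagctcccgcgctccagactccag
The motif was found in 0.411% of 32841 promoter windows of this length, in 3 of 14 windows of chemokine genes and in 4 of 19 windows of the NF-kB list. A match describes letters in the window and not a bound site.

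Many regulators of these signals rose as well. Of 17 genes for NF-kB subunits and feedback inhibitors 13 rose and 1 fell, with a median of 1.09. Traf1, an adaptor of TNF receptors, read 1.41, 2.56 and 2.68 in the controls and 6.54 and 6.48 after tumour material (difference 4.09 ± 0.29, adjusted p 1.69e-06). Ier3 rose by 4.85, Tnfaip3, the ubiquitin-editing inhibitor A20, by 1.88 and Nfkbia, the inhibitor IkB alpha, by 1.62. Of 17 genes of SOCS and STAT signalling 9 rose and 1 fell, with a median of 0.43, and 6 rose without tumour replicate 3. Socs3, a feedback inhibitor of receptors of the interleukin-6 family, read -1.09, -1.73 and -1.55 in the controls and 7.10 and 7.23 after tumour material. Its difference of 8.55 ± 0.45 (adjusted p 1.97e-07) became 8.70 without control replicate 1. Cish, a feedback inhibitor of STAT5, rose by 6.38 and Socs1, which restrains interferon signalling, by 4.72 ± 0.13. Irak3, a negative regulator of Toll-like receptor signalling, rose by 3.39. Nlrp3, the sensor of the inflammasome, was dim in every control and rose at least 6.32-fold.

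Most interferon-stimulated genes rose. Of 28 measured, 21 rose with a median of 1.24, and 25 rose with a median of 1.47 without control replicate 1. The count depended on single replicates, at 11 without control replicate 3 and 10 without tumour replicate 3. Rsad2, the antiviral enzyme viperin, read 5.02, 3.66 and 3.80 in the controls and 6.28 and 5.96 after tumour material, a difference of 2.07 ± 0.31 (adjusted p 0.000488). Control replicate 1 held the highest control level, and the difference was 2.35 without it. Ifi44, Isg20, Oasl1 and Usp18, which removes ISG15 from proteins, rose by 2.51, 2.23, 2.13 and 2.10. Irf7, the factor that amplifies interferon production, rose by 1.94. The interferon-induced GTPases, which act against intracellular pathogens, had 12 of 14 members higher and a median of 2.21. These values were 13 and 2.78 without control replicate 1, and 6 rose without control replicate 3 or without tumour replicate 3. Gbp5 read 4.65, 1.86 and 1.92 in the controls and 6.60 and 6.49 after tumour material (difference 3.90 ± 0.64, adjusted p 0.000872; 4.54 without control replicate 1). Gbp4 and Gbp7 rose by 5.30 and 3.55. In each of these guanylate-binding proteins control replicate 1 was the highest control, so leaving it out widened the gap to the tumour replicates.

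The promoter of Gbp5 is shown for this group, with its match to the interferon element type motif (GAAA, any 2 bases, GAAA, on either strand) in capitals, at chr3:142496684-142496983 on the + strand of GRCm38.p6.
Gbp5: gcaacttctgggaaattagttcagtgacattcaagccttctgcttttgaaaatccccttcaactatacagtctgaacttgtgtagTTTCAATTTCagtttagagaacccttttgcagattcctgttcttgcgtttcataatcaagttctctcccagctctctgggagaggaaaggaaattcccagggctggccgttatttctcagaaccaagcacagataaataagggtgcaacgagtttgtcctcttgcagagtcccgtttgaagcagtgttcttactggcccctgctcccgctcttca
The motif occurred in 9 of 11 windows of the interferon-induced GTPases and 13 of 26 of the interferon-stimulated genes, against 3.44% of all windows.

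Some genes of MHC class I and its peptide supply rose. Of 17 measured, 8 rose with a median of 0.54, and 15 rose without control replicate 1, whereas 3 rose without control replicate 3 or without tumour replicate 3. Under quantile scaling the median of this list was 0.21. Tap1 and Tap2, the subunits of the peptide transporter, rose by 1.87 and 1.29. MHC class II genes gave another picture, and it depended on control replicate 1. None of 8 measured passed limma's adjusted test with all replicates, 1 had an unadjusted p under 0.05, and the median was 0.03. H2-Aa, an alpha chain of MHC class II, read -0.06, 3.94 and 3.997 in control replicates 1, 2 and 3 and 1.31 and 1.80 in the tumour replicates. Its difference was -1.40 (adjusted p 0.283), and -2.30 without control replicate 1 (adjusted p 1.63e-06). H2-Eb1 read 3.47, 6.88 and 7.05 and 3.78 and 4.26, and its difference moved from -2.07 to -2.85. Cd74, the invariant chain, read 3.41, 6.53 and 6.88 and 5.29 and 5.13, and its difference moved from -0.81 to -1.59. In all 3 genes control replicate 1 lay below both tumour replicates, while control replicates 2 and 3 lay close together above them. Without control replicate 1, 4 of the 8 genes fell and 1, H2-Oa, which encodes a subunit of the H2-O regulator of peptide loading, was at least 3.76-fold higher, at a list median of -0.34.

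Costimulatory and checkpoint ligands were mostly higher, with 7 of 10 up, 2 down and a median of 1.14. Cd274, the PD-L1 ligand that inhibits T cells, read 2.98, 2.67 and 2.41 in the controls and 4.25 and 4.79 after tumour material (difference 2.08 ± 0.22, adjusted p 3.43e-05). Cd86 rose by 1.94. Cd80, its partner ligand for CD28, read 3.77, 4.18 and 3.69 and 3.09 and 1.33, a difference of -1.85 (adjusted p 0.0438). Its tumour replicates lay wide apart, and the differences of its probes before correction for slide ran from -1.67 to 0.83, so it has no settled direction. It did not pass without wild-type control replicate 1 (adjusted p 0.0505), without wild-type control replicate 3 (adjusted p 0.0909), without wild-type tumour replicate 1 (adjusted p 0.0664), without wild-type tumour replicate 3 (adjusted p 0.0565), without transgenic control replicate 2 (adjusted p 0.0616), without transgenic control replicate 3 (adjusted p 0.132) and without transgenic tumour replicate 3 (adjusted p 0.454).

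Markers of alternative activation moved in both directions. Of 15 measured members 7 rose and 2 fell, with a median of 0.77. Arg1, the arginase that turns arginine into ornithine, was not well above background on any control array and read 0.87 and 0.50 after tumour material, at least 18.3-fold higher (adjusted p 2.59e-08). Ccl17, an attractant for CCR4-bearing T cells, rose at least 9.19-fold, and Il4ra, the receptor for interleukin-4 and interleukin-13, by 2.70. Chil3, a chitinase-like protein, went the other way, from 8.64, 6.88 and 7.06 in the controls to 5.13 and 4.68 (difference -2.70 ± 0.49, adjusted p 0.0017; -2.35 without control replicate 1). Mrc1, the mannose receptor, read 4.07, 5.19 and 4.97 and 4.38 and 4.32. It did not pass with all replicates (-0.41, adjusted p 0.334) and was lower without control replicate 1 (-0.65, adjusted p 0.00803). Retnla was too dim to be tested. Nos2, which competes with arginase for arginine and makes nitric oxide, read -0.63, -2.10 and -2.15 in the controls and 5.74 and 5.86 after tumour material, a rise of 7.50 ± 0.39 (adjusted p 1.83e-07). Ass1, which regenerates arginine from citrulline, rose by 4.39, and the arginine carrier Slc7a2 was at least 4.01-fold higher.

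Some secreted growth factors, proteases and inhibitors rose. Of 15 growth factors 7 rose with a median of 0.98. Csf3, which drives neutrophil production, was dim in every control and read 3.23 and 3.03 after tumour material, at least 100-fold higher, and Vegfc, a growth factor of lymphatic vessels, was at least 34.4-fold higher. Vegfa, the main growth factor of blood vessels, read 2.85, -0.30 and -0.34 in the controls and 0.24 and 0.28 after tumour material. Control replicate 1 lay above the tumour replicates and the other controls below them, and the difference was -0.18 (adjusted p 0.885) with it and 0.57 (adjusted p 0.00469) without it. Of 17 matrix proteases and inhibitors 10 rose and 1 fell, with a median of 1.90. Mmp13, a collagenase, read -2.46, -3.52 and -2.89 and 3.90 and 4.05 (difference 6.91 ± 0.28, adjusted p 2.29e-08), Mmp8 rose by 4.50 and Mmp10 by 3.36. Of 9 stefins and cystatins, inhibitors of cysteine proteases, 6 rose with a median of 1.38. Csta2 and Stfa3, from a cluster of near-identical genes whose probes may share signal, were dim in every control and at least 439-fold and 12-fold higher after tumour material. Ptgs2, which makes prostaglandin precursors, was at least 25.9-fold higher, and Hpgds, the haematopoietic prostaglandin D synthase, fell (-2.17, adjusted p 0.0018).

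Of 35 genes of hypoxia and glycolysis 18 rose and 3 fell, with a median of 0.74. Without tumour replicate 3 these counts were 13 and 1. Hilpda, a lipid droplet protein induced by HIF-1, read 3.38, 4.18 and 3.47 in the controls and 6.11 and 6.02 after tumour material, a rise of 2.43 ± 0.21 (adjusted p 7.53e-06). Ak4 and Egln3, a HIF prolyl hydroxylase, rose by 3.05 and 2.55, and the lactate exporter Slc16a3 and the glycolytic regulator Pfkfb3 by 2.01 and 1.73. Hif1a itself read 2.10, 2.63 and 1.78 and 2.42 and 2.62, and neither it (adjusted p 0.483) nor Ldha (0.28, adjusted p 0.0983) passed. Acod1, which makes itaconate from a citric acid cycle intermediate, read 5.15, 2.91 and 3.12 and 7.21 and 7.24 and rose by 3.77 (4.25 without control replicate 1).

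Of 20 genes of the ATF4 and amino acid response 13 rose and 1 fell, with a median of 1.12. ATF4 is the factor through which amino acid shortage and other stresses induce transporters, synthetases and regulators of cell death. Ddit3, the factor CHOP, read 3.86, 3.40 and 3.92 in the controls and 6.02 and 5.83 after tumour material (difference 2.13 ± 0.21, adjusted p 2.18e-05). Trib3, Nupr1 and the amino acid transporter Slc7a5 rose by 2.74, 2.51 and 1.79. Chac1, which degrades glutathione, read 1.77, 1.97 and 1.97 and 4.09 and 3.93, a difference of 1.97 ± 0.14 (adjusted p 2.51e-06) and 1.92 without control replicate 1. The 3 controls of Chac1 lay close together and below both tumour replicates. ER chaperones did not move with this list, since 1 of 20 rose and 3 fell (all genes: 15.2% and 10.2%) at a median of -0.10. Pdia4 rose by 1.97 and Atf6, a sensor of unfolded protein, fell (-1.57, adjusted p 0.00012).

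The promoter of Chac1 is shown for its match to the ATF4 composite motif TGATGCAA, in capitals, at chr2:119350992-119351291 on the + strand of GRCm38.p6. The match is on the reverse strand and so reads TTGCATCA.
Chac1: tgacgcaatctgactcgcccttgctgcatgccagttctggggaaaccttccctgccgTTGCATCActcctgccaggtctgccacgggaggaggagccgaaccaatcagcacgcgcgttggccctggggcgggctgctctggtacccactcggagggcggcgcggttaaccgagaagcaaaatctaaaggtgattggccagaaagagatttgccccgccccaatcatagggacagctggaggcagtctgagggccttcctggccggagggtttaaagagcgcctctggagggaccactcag
The motif (either strand) occurred in 0.895% of all windows and in 3 of 19 windows of this list.

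In the genes of oxidative defence and iron, Hmox1, which degrades haem, read 6.64, 6.91 and 6.63 in the controls and 9.23 and 9.10 after tumour material (difference 2.43 ± 0.14, adjusted p 3.79e-07). Of 21 NRF2 targets, Hmox1 among them, 4 rose and 2 fell (all genes: 15.2% and 10.2%), at a median of 0.10. Cp, the copper-containing ferroxidase, rose by 3.72. Tfrc, the transferrin receptor, fell from 3.24, 4.59 and 4.41 to 2.41 and 1.92 (-2.12 ± 0.31, adjusted p 0.000443), and Slc40a1, the iron exporter ferroportin, fell by 0.97.

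Most genes of cell division fell. All 17 measured members of the mitosis and spindle list were lower (all genes: 10.2%), with a median of -2.97, and also without control replicate 1, at a median of -3.32. With dim members set at their bounds the median with all replicates was -2.68, and under normexp background correction it was -1.85. In 16 of the 17 both tumour replicates lay below every control (all genes: 21.0%). Ccna2, cyclin A2, read 1.86, 3.53 and 3.15 in the controls and -1.53 and -1.78 after tumour material, a difference of -4.75 ± 0.43 (adjusted p 1.15e-05). Ccnb2, cyclin B2, read 2.83, 4.19 and 4.18 and 0.20 and -0.25 (-3.91 ± 0.34, adjusted p 8.77e-06). Birc5, or survivin, fell by 3.69, and Mki67, the antigen of dividing cells, fell from 2.90, 3.28 and 3.24 to 0.94 and 1.42 (-1.92, adjusted p 2.26e-05). Pbk, a mitotic kinase, was dim on all tumour arrays and at least 11.3-fold lower. Control replicate 1 held the lowest control level of Ccna2, Ccnb2, Birc5 and Pbk, so the gap was wider without it. Of 23 genes of DNA replication 16 fell and 1 rose, with a median of -1.29. Without control replicate 3, or without tumour replicate 3, 8 fell. Mcm10, which activates the replicative helicase, read 0.55, 1.78 and 1.60 and -1.72 and -1.64 (-3.06, adjusted p 5.84e-05). The gene that rose was Tyms, thymidylate synthase, by 2.64, and Pcna, the sliding clamp, did not pass (-0.10, adjusted p 0.812). Over both lists 33 of 40 genes were lower, and 36 without control replicate 1. Of 8 inhibitors and D cyclins that set entry into the cycle, 2 rose and 3 fell (all genes: 15.2% and 10.2%), with a median of -0.54. Ccnd2 rose by 2.76, and the other member that rose was an inhibitor. The inhibitor Cdkn1c fell from 3.04, 5.30 and 5.75 to 0.45 and -0.014 (-4.54, adjusted p 0.00061), and Cdkn2c fell by 2.76.

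**Figure D3:**
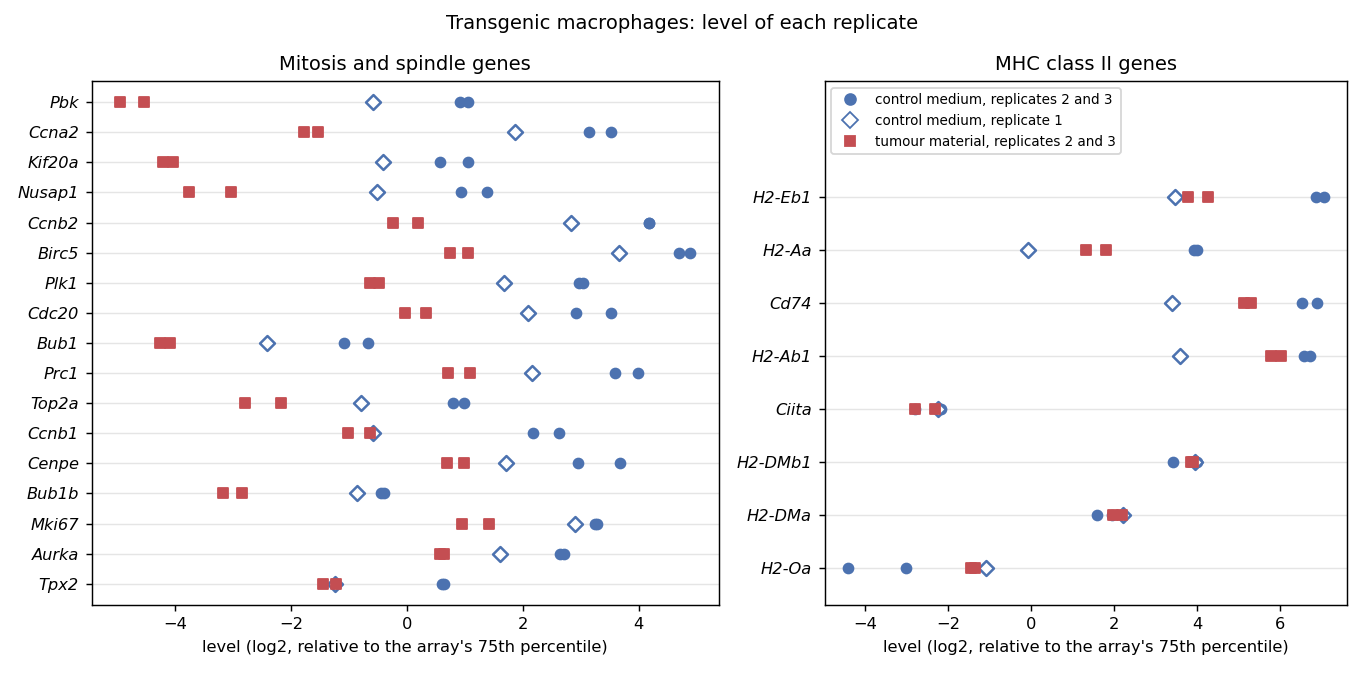
Levels (log2 signal relative to the array's 75th percentile) of the 17 measured mitosis and spindle genes and the 8 measured MHC class II genes in each transgenic replicate, with the symbols of the plot of replicate values. Tumour replicates lie below every control for 16 of the 17 mitosis genes (all genes: 21.0%). For H2-Aa, H2-Ab1, H2-Eb1 and Cd74 control replicate 1 lies below both tumour replicates, and control replicates 2 and 3 lie above them. The other MHC class II genes do not share this order.

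The promoter of Ccnb2 is shown because its window holds 2 matches to the CHR letters TTTGAA and 3 to the CCAAT box (both motifs on either strand, in capitals), at chr9:70421505-70421804 on the - strand of GRCm38.p6.
Ccnb2: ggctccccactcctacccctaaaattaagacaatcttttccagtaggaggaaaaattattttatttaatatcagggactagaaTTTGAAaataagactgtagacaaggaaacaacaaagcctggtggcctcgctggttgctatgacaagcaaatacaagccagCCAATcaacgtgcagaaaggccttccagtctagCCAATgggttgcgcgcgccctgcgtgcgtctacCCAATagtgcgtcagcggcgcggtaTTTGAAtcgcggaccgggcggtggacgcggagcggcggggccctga
In the 14 windows of the mitosis list, 9 held TTTGAA and 12 held CCAAT, against 17.9% and 37.4% of all windows.

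Most granule genes of immature neutrophils fell as well. Of 12 measured members 10 fell and 2 rose, with a median of -2.65, and the same counts without control replicate 1 came with a median of -2.24. Mpo, myeloperoxidase, read 5.87, 3.89 and 4.23 in the controls and -0.91 and -1.22 after tumour material, a difference of -5.62 ± 0.46 (adjusted p 5.3e-06) and -5.20 without control replicate 1. Ltf, lactoferrin, read 6.19, 2.54 and 3.57 and -1.42 and -1.63 (-5.52 ± 0.80, adjusted p 0.000386; -4.83 without control replicate 1). Ngp was at least 39.1-fold lower and Ms4a3, expressed by granulocyte and monocyte precursors, at least 10.8-fold lower. For all 4 genes control replicate 1 was the highest of the controls and the tumour replicates lay below all of them. The 2 members that rose were the collagenase Mmp8 and Lcn2. Lcn2 read 7.38, 4.63 and 5.22 and 8.62 and 8.03 (2.51, adjusted p 0.013; 3.05 without control replicate 1). It lost its call without control replicate 3 (adjusted p 0.153) or tumour replicate 3 (adjusted p 0.0504). The summed level of the list, given above, did not fall, and Lcn2 alone reached 8.62 and 8.03 in the tumour replicates. Other strong falls were Pcp4l1 (-5.38, adjusted p 0.000188), Crispld2 (-4.37), the cell cycle gene Cdca3 (-4.38), Cmbl (at least 39.2-fold lower), Mamdc2 (at least 24.9-fold) and Npas4 (at least 22.8-fold).

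Among genes of macrophage identity, 7 of 19 rose and 2 fell (all genes: 15.2% and 10.2%), with a median of 0.14. Siglec1, the sialoadhesin of resident macrophages, rose from 4.78, 3.81 and 3.82 to 6.67 and 6.53 (2.49, adjusted p 2.94e-05) and the Fc receptor Fcgr1 rose by 1.58. Cx3cr1, the fractalkine receptor, fell from 0.69, 0.92 and 1.28 to -1.04 and -1.15 (-2.26 ± 0.41, adjusted p 0.00167; -2.36 without control replicate 1). Cxcr3, the receptor of the Cxcl9 and Cxcl10 attractants, fell by 2.57. The controls and tumour replicates of these genes did not overlap, as was so for 50.7% of all genes.

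Some genes of cholesterol synthesis fell. Of 24 measured 11 fell (all genes: 10.2%), with a median of -0.76, and 14 fell without control replicate 1 (all genes: 14.2%). Without control replicate 3 or without tumour replicate 3 the count was 3. Stard4, a carrier of cholesterol, read 0.98, 1.64 and 1.45 in the controls and -0.35 and -0.44 after tumour material (difference -1.70 ± 0.25, adjusted p 0.000386). Of 16 LXR and efflux genes 4 rose and 1 fell (all genes: 15.2% and 10.2%). Ch25h, which makes 25-hydroxycholesterol, was at least 35.3-fold higher and the exporter Abca1 rose by 1.22, while Cyp27a1, which makes 27-hydroxycholesterol, fell from 1.56, 1.01 and 1.01 to -2.19 and -2.47 (-3.59 ± 0.22, adjusted p 7.7e-07). In fatty acid handling 3 of 21 genes rose and 5 fell (all genes: 15.2% and 10.2%). Angptl4, an inhibitor of lipoprotein lipase that PPAR factors and hypoxia induce, fell from 3.63, 3.57 and 3.65 to -1.95 and -1.40 (-5.09 ± 0.23, adjusted p 7.51e-08). Its controls lay close together, and the difference without control replicate 1 was -5.06. Fasn, fatty acid synthase, was at least 3.47-fold lower, and Acsl1, which activates long-chain fatty acids, rose by 2.41.

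The lysosomal and autophagy genes that TFEB is known for showed no common direction. Tfeb itself was lower after tumour material, at 0.011 and -0.12 against the control values given above (-1.16 ± 0.16, adjusted p 0.000243; -1.13 without control replicate 1). Of its relatives, Tfec, a myeloid member of the family, rose from 1.71, 1.48 and 1.46 to 4.10 and 3.99 (2.47 ± 0.17, adjusted p 1.76e-06) and Mitf rose by 0.56 ± 0.11 (adjusted p 0.00228). Tfe3 read 5.25, 5.82 and 6.24 and 6.45 and 5.90 and did not pass (0.25, adjusted p 0.669). Of 39 lysosomal hydrolases and membrane proteins 7 rose and 9 fell, with a median of 0.03, which became 8, 10 and 0.11 without control replicate 1. Under quantile scaling the median was -0.12. Lipa, lysosomal acid lipase, fell from 6.95, 6.31 and 6.72 to 4.43 and 4.47 (-2.15 ± 0.19, adjusted p 9.62e-06). Sgsh, a heparan sulfatase, rose by 1.40 on its brightest probe, but the differences of its probes before correction for slide ran from -1.55 to 1.25. Lamp1, a major membrane protein of lysosomes, read 7.34, 8.19 and 7.60 and 7.62 and 7.59 (0.034, adjusted p 0.926). Gpnmb, a glycoprotein often used as a readout of MiT/TFE activity, read 6.44, 6.61 and 6.55 and 6.52 and 6.58 (0.17, adjusted p 0.426).

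Of 11 cathepsins, the lysosomal proteases, 3 rose and 1 fell with a median of 0.28. Ctsh rose by 0.63 and Ctsf fell by 1.20. Ctsd, one of the most studied TFEB targets, read 8.63, 8.82 and 8.74 in the controls and 8.86 and 8.70 after tumour material and did not pass (0.091, adjusted p 0.658), and the differences of its probes before correction for slide ran from -0.67 to 0.049. Of 18 subunits of the V-ATPase, the proton pump that acidifies lysosomes, 1 rose. Of 33 autophagy genes 3 rose and 5 fell, Tfeb among the latter, with a median of -0.20. Sqstm1, the adaptor p62, read 4.68, 4.98 and 4.06 and 5.28 and 5.24 (0.86, adjusted p 0.0138) and lost its call without transgenic control replicate 3 (adjusted p 0.199) and without transgenic tumour replicate 3 (adjusted p 0.127). Of 17 genes for MiT/TFE factors and nutrient sensing, Tfec and Mitf rose and Tfeb fell. Over all genes 15.2% rose and 10.2% fell, and the shares in these lists lie on both sides of those values.

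The promoter of Ctsd is shown for its match to the CLEAR type motif TCACGTGA, in capitals, at chr7:142387778-142388077 on the - strand of GRCm38.p6.
Ctsd: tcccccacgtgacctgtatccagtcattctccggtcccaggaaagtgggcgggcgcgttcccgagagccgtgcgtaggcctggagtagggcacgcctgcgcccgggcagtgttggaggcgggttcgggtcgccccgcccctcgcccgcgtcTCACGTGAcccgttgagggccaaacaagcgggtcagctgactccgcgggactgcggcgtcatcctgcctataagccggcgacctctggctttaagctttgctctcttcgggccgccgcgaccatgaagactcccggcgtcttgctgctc
This palindromic motif occurred in 0.974% of all windows and in 4 of 35 windows of the lysosomal list. Of 10 measured genes of the lysosomal, cathepsin, V-ATPase and autophagy lists with the motif in a window, 1 was called (all genes: 25.4%), and 2 without control replicate 1 (all genes: 33.4%).

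The response of transgenic macrophages was then set against that of wild-type macrophages, which share no control with it. Both came from 1 fit with a shared spread and slide term, so their calls are not independent. Of the 4016 calls in transgenic cells, 3232 were also called in the same direction in wild-type cells, which is 80.5% of the transgenic calls and 51.0% of the 6342 wild-type calls (40.1% of genes). The difference between the responses was tested by the interaction term, which passed for 308 genes (1.95%), 161 with a higher (1.02%) and 147 with a lower signed difference (0.928%) in transgenic cells. Without control replicate 1 it passed for 1209 genes (7.64%), the 308 among them. It passed for 45 genes without transgenic tumour replicate 3 and for 46 without wild-type tumour replicate 3. It passed for 827 genes without the 3 arrays of slide column 4, all of them transgenic (2 controls, replicates 1 and 2, and a second array of tumour replicate 3), and for 200 with that column as a term. Slide 2 alone could hardly test this term, since it held 1 array of every group but the transgenic tumour group. The 3 arrays of that group include 2 of 1 replicate. Of the 308 genes, 27 were called in opposite directions in the 2 genotypes.

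Arg1 showed a difference of this kind that passed in each fit leaving out 1 replicate. It read 0.87 and 0.50 in transgenic and 6.62, 6.62 and 6.49 in wild-type tumour replicates, and was dim in the controls of both. It rose at least 18.3-fold in transgenic and at least 668-fold in wild-type cells, and the response was lower in transgenic cells by a fitted log2 difference of -5.72 ± 0.28 (adjusted p 1.29e-06). Lum, the matrix proteoglycan lumican, was above background on 2 of 3 transgenic tumour arrays (-1.97 and -2.14) and read 2.13, 2.36 and 2.39 in wild-type tumour replicates, an interaction of -4.48 (adjusted p 1.29e-06). Il10 rose in wild-type cells by 3.28, from -0.31, 0.041 and 0.11 to 3.08, 3.08 and 3.46, and its transgenic difference of 0.46 gave an interaction of -2.82 (adjusted p 0.00079). Il1f6, an interleukin-36 cytokine, had an interaction of -4.04 (adjusted p 0.00155). Gipr was dim on every transgenic array and at least 13.4-fold higher after tumour material in wild-type cells (interaction adjusted p 9.37e-05). The controls of both genotypes were dim for Arg1, Lum, Il1f6 and Gipr, so their fitted interactions measure no size. By the bounds Lum rose at least 2.75-fold in transgenic and 34.3-fold in wild-type cells, and Il1f6 at least 2.82-fold and 28.1-fold. In each of these genes the wild-type tumour replicates had the higher levels, and the interaction kept its call in every fit that left out 1 replicate, control replicate 1 included.

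Other interactions had the opposite sign or belonged to genes that fell. Chac1 rose by 1.97 in transgenic cells and read 2.82, 2.89 and 3.13 in wild-type controls and 3.06, 2.92 and 3.09 after tumour material, an interaction of 1.91 ± 0.18 (adjusted p 0.000354). Phgdh, the first enzyme of serine synthesis, fell in wild-type cells (-3.13) and had a difference of -0.31 in transgenic cells (interaction 2.83, adjusted p 0.00024). Angptl4 fell by 5.09 in transgenic and by 2.18 in wild-type cells (interaction -2.91, adjusted p 0.000551). These 3 interactions also passed in each fit leaving out 1 replicate. Il1b rose by 7.44 against 3.50 in wild-type cells (interaction 3.94, adjusted p 0.00209) and lost this call without transgenic tumour replicate 3 (adjusted p 0.0603). Socs3 rose by 8.55 against 4.93 (interaction 3.62, adjusted p 0.00665), and this call was lost without transgenic tumour replicate 3 or wild-type tumour replicate 3 (adjusted p 0.13 and 0.0842). In each of these genes leaving out control replicate 1 kept the direction and the call. A larger rise was not a higher end level for Il1b. It read 2.30, 1.45 and 2.18 in wild-type controls and -1.63, -3.19 and -2.95 in transgenic controls. After tumour material it read 5.48, 5.50 and 5.55 in wild-type cells and lower, at 4.75 and 4.83, in transgenic cells.

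Part of the mitosis genes had a larger fall in transgenic than in wild-type cells, which compares sizes of fall and not the levels reached. Of the 17 mitosis genes, 11 fell in wild-type cells, at a median of -1.18, and 10 had a lower response in transgenic cells by the interaction term, against 0.928% of all genes. Of these 10, 2 were dim on every wild-type array. The interaction passed for 12 without control replicate 1, for 1 without transgenic tumour replicate 3 and for 2 without wild-type tumour replicate 3. It passed for 4 to 6 without transgenic control replicate 3 or tumour replicate 2, or without any other wild-type replicate but control replicate 2. Of the 23 DNA replication genes 3 had a lower response in transgenic cells by this term, 14 without control replicate 1, and none in limma without transgenic or wild-type tumour replicate 3, where 9 and 11 had an unadjusted p under 0.05. Birc5 differed by -0.53 in wild-type cells (adjusted p 0.103), with an interaction of -3.16 ± 0.40 (adjusted p 0.00211) that lost its call without transgenic tumour replicate 3 (adjusted p 0.0603). Mki67 read 1.53, 1.25 and 1.43 in wild-type controls and 1.13, 1.16 and 1.29 after tumour material, and its interaction of -1.73 (adjusted p 0.00349) lost its call without wild-type tumour replicate 3 (adjusted p 0.0764). The wild-type tumour replicates of Mki67 overlapped their controls, where the transgenic tumour replicates lay below all of theirs. The transgenic controls of Mki67 started higher, at 2.90, 3.28 and 3.24, and its transgenic tumour replicates read 0.94 and 1.42. Birc5 controls read 3.65, 4.90 and 4.70 in transgenic and 1.57, 2.00 and 1.84 in wild-type cells. After tumour material Birc5 read 1.05 and 0.75 in transgenic and 1.23, 1.17 and 1.36 in wild-type cells.

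**Figure D4:**
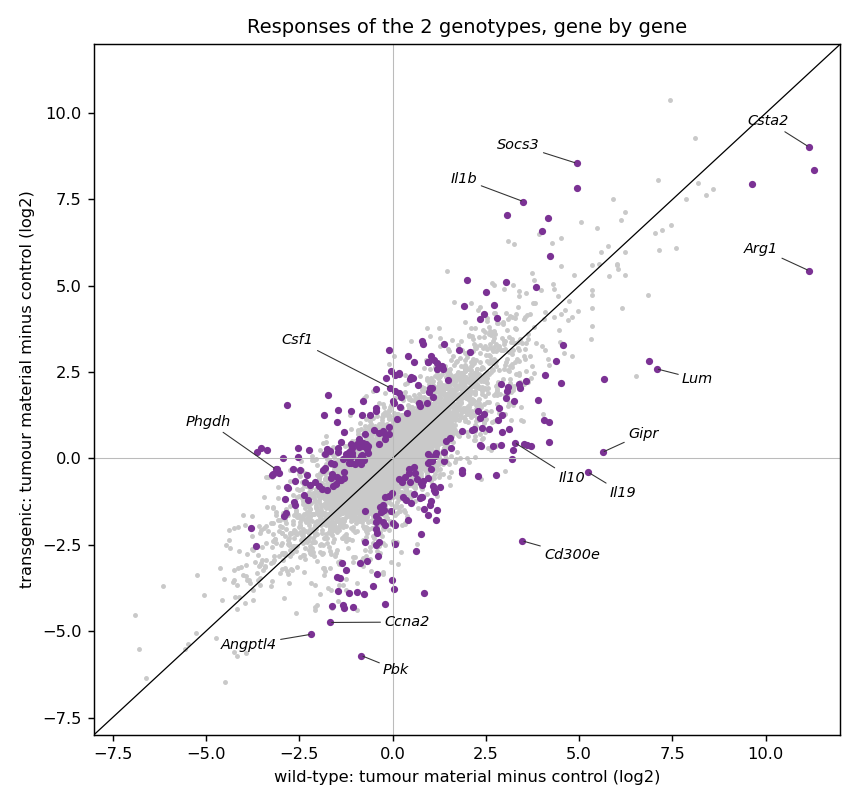
Log2 difference, tumour minus control, in wild-type macrophages (x axis) and transgenic macrophages (y axis), 1 point per gene tested. Coloured points are the 308 genes whose interaction passed, and the diagonal marks equal responses. Arg1, Il10 and Gipr lie below the diagonal at the right, and Il1b and Socs3 above it.

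Beyond MHC class II, some single genes turned on control replicate 1. Bex1 read -4.48, 1.45 and 1.33 in control replicates 1, 2 and 3 and -3.59 and -3.14 after tumour material, where no array was above background. It did not pass with all replicates (adjusted p 0.104) and was at least 19.7-fold lower without control replicate 1 (adjusted p 1.68e-06). Camsap3 moved from -2.59 to -3.62 and Clic5 from 2.05 to 2.95, and both were called without that replicate. In Camsap3 and Clic5 the tumour replicates lay between control replicate 1 and the other controls. Among the calls lost without control replicate 1, Ier2, an immediate early gene, had a difference of -1.26 (adjusted p 0.027) that became -0.98 (adjusted p 0.0583), and it lost its call also without wild-type control replicate 3 (adjusted p 0.106) and without wild-type tumour replicate 3 (adjusted p 0.0909). Leaving out control replicate 1 moved the difference by over 1 on the log2 scale for 27 genes, 9 of them called with all replicates.

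**Figure D5:**
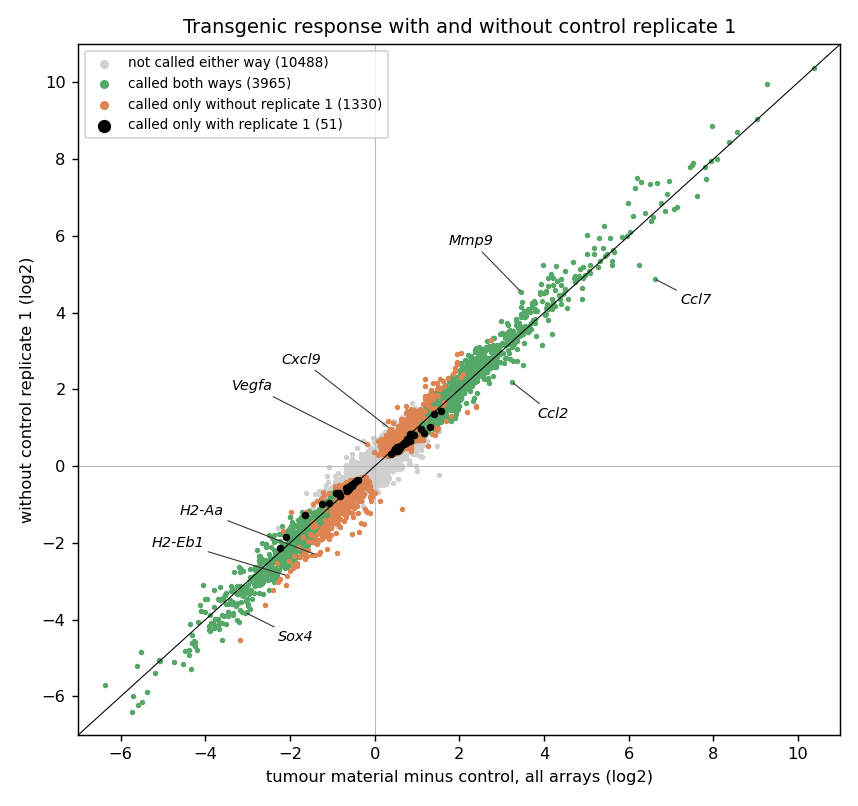
Log2 difference, tumour minus control, in transgenic macrophages with all replicates (x axis) and without control replicate 1 (y axis), 1 point per gene. Of the genes, 3965 were called both ways, 1330 only without control replicate 1, 51 only with it and 10488 neither way. H2-Aa, Ccl7 and Vegfa lie off the diagonal.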

How the data were processed

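Total RNA (200 ng) from each culture was labelled with Cy3 and hybridised to one-colour Agilent mouse arrays of 62976 spots. The submitters' processing notes name Agilent Feature Extraction 10.7.3.1 as the scanner software. The deposited files give, per the file headers, an intensity for each spot from which background was subtracted and spatial trends removed. The authors' deposited value table is on a log2 scale with a median of 2.84 per array and followed the scanner values (r of at least 0.9987), and it served as an alternative only. Its centring is unknown here.

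Control and flagged spots were removed, intensities were divided by each array's 75th percentile, which lay between 83.0 and 142 over all arrays, and log2 was taken. Between 35.5% and 40.2% of spots were well above background, and the number of arrays limits the precision. Probes were kept where detected on every array of at least 1 group and averaged over repeat spots, each gene was represented by its brightest probe, and symbols came from RefSeq through accessions, which left 4860 of 15834 genes without a symbol. limma 3.58.1 in R 4.3.3 fitted 4 group means with slide as a term and repeat arrays as a block (statmod 1.5.0), with Benjamini-Hochberg adjustment. It was tested on simulated data before use. The 51 gene lists and the choice of arrays were made with earlier results of these data known. Named genes are the 12 largest rises and falls with separated replicates, up to 5 changed members per list, well-known members that did not pass, a set list, the 10 largest interactions, and up to 8 genes whose call turned on control replicate 1. Some genes that this rule names are not reported here. The summed level of a list is the log2 of its members' added linear signals. Figures were drawn with matplotlib 3.10.9. Replicate numbers were not used to pair the samples in the full fit. In all, 31 alternatives were run, of which 3 were chosen after seeing the data. One alternative, normexp background correction, used the median spot signal, since the files hold no mean signal. It gave smaller list medians for chemokines (1.30), inflammatory cytokines (1.51) and mitosis genes (-1.85) than the full fit (2.83, 2.37 and -2.97).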

Additional observations from a re-analysis of the deposited data

Results flagged for a closer look

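For 308 genes the response to tumour material differed between transgenic and wild-type macrophages by limma's interaction term at an adjusted p under 0.05, and the named genes among them follow with their interaction values (transgenic minus wild-type response, log2). The 10 with the largest fitted sizes were Cd300e (-5.86), Arg1 (-5.72), Il19 (-5.63), Gipr (-5.45), Pbk (-4.87), Sapcd2 (-4.73), Lum (-4.48), Ednrb (4.36), Il1f6 (-4.04) and Aunip (-4.00). All of these but Ednrb were not well above background on any array of at least 1 group, as were 66 of the 308 genes, so their fitted values rest partly on background signal, measure no size and have no order. Pbk and Aunip were dim on every wild-type array and on every transgenic tumour array, and were at least 11.3-fold and 8.88-fold lower after tumour material in transgenic cells. Cd300e, an activating receptor of monocytes, was dim on every transgenic tumour array and every wild-type control array. It was at least 3.1-fold lower after tumour material in transgenic cells (adjusted p 0.0226), a call that was lost without transgenic control replicate 3 (adjusted p 0.211) and without transgenic tumour replicate 3 (adjusted p 0.246), and at least 4.04-fold higher in wild-type cells (adjusted p 0.00024). Il19, a cytokine of the interleukin-10 family, was dim on every transgenic array and every wild-type control array, and was at least 13.1-fold higher after tumour material in wild-type cells. Ednrb, an endothelin receptor, fell in wild-type cells (-2.83) and did not pass in transgenic cells (1.54, adjusted p 0.0677), where the differences of its probes before correction for slide ran from -0.93 to 1.31.

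Interaction values below 0 were also found for Angptl4 (-2.91), Birc5 (-3.16), Ccnb2 (-3.14), Ccna2 (-3.07), U90926 (-2.95), Il10 (-2.82), Csta2 (-2.13), Mki67 (-1.73), Csf3 (-1.70) and Hilpda (-1.65). Values above 0 were found for Il1b (3.94), Socs3 (3.62), Flrt3 (2.90), Phgdh (2.83), which fell in wild-type cells, Chac1 (1.91) and Mitf (0.76), which rose in transgenic cells and had a difference of -0.20 in wild-type cells (adjusted p 0.0698). The controls of both genotypes were dim for U90926, Csta2 and Csf3, and the transgenic controls for Flrt3.

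Without transgenic control replicate 1 every interaction named here kept its direction and its call. Arg1, Gipr, Lum, Il1f6, Il10, Angptl4, Phgdh and Chac1 kept the call without any other single replicate too. Without transgenic tumour replicate 3 the call was lost for the other genes except Mki67 (adjusted p 0.0576 for Il19 to 0.348 for Sapcd2). Without wild-type tumour replicate 3 it was lost for those genes and Mki67, except Il19, Il1b and Birc5 (adjusted p 0.0526 for Ccnb2 to 0.34 for Sapcd2). Further losses were without transgenic control replicate 3 for Aunip, Ccna2, Flrt3 and Sapcd2, without wild-type control replicate 1 for Sapcd2, without wild-type control replicate 3 for Flrt3, and without wild-type tumour replicate 1 or 2 or transgenic tumour replicate 2 for Sapcd2.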

How the results depend on the processing

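The 4016 genes called in transgenic macrophages became 2304 (without tumour replicate 3) to 5295 (without control replicate 1) when 1 replicate was left out, 1765 on slide 2 alone, 1239 against a 1.5-fold change (limma's treat) and 187 with the transgenic arrays alone. Under the other alternatives the count stayed within 1.5 times. Slide 2 held 1 array of every group but the transgenic tumour group, so the counts on slide 2 alone, here and for the interactions, carry little weight. The 308 interactions became 45 (without transgenic tumour replicate 3) to 1209 (without transgenic control replicate 1), with 46 without wild-type tumour replicate 3, 190 without wild-type control replicate 1 and 192 without wild-type tumour replicate 1. They became 0 on slide 2 alone (limma; 1380 at an unadjusted p under 0.05), 65 by treat, 170 with repeat arrays averaged, 182 with no filter on dim probes, 200 with slide column 4 as a term, 203 without the repeat array of transgenic tumour replicate 3, 804 with array weights and 827 without the 3 arrays of slide column 4. Those arrays were all transgenic, and the spatial trend that the scanner software removed had a root mean square of 0.253 to 0.331 on them against 0.0964 to 0.126 on the others. Without control replicate 1 they became 1049 with the column term and 1224 under quantile scaling, both settings chosen after seeing the data. The cause of these shifts was not tested, apart from the fewer arrays or genes that some of the settings use.

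The correlations of deviations between same-numbered samples were -0.012, -0.14 and 0.20 in wild-type and -0.12 and -0.18 in transgenic samples. These values rest on few replicates per group, so they cannot decide whether the numbers mark paired samples. A replicate block gave 4431 calls and 713 interactions.

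Vegfa changed sign, from -0.18 to 0.57 without control replicate 1, 0.56 without the arrays of slide column 4, 0.58 with the replicate block, 0.58 with the column term without control replicate 1 and 0.57 under quantile scaling without control replicate 1, and ranged from -1.07 to 0.57 over the fits that left out 1 replicate. Lamp1 became -0.38 under quantile scaling without control replicate 1, and Sgsh -0.068 as the mean of its probes. The 40.2% of spots at most that were well above background set what could be measured, and a call missed at 2 against 3 replicates does not show that a gene did not respond.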
